A study of Mus musculus with 6 samples.

Results

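Replication-dependent histone genes encode the linker histone H1 and the core histones H2A, H2B, H3 and H4, and were followed here in mouse DN3 thymocytes. They were taken as the genes named Hist1 to Hist4 followed by a class letter, with at least 20 counts summed over the 6 libraries. This rule kept 48 of the 68 such gene names in the files, out of 24015 gene names in all. The 48 comprised 5 genes of H1, 12 of H2a, 12 of H2b, 8 of H3 and 11 of H4. Another 9 names had between 1 and 19 counts, and 11 had 0 counts in every library.

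DN3 cells are thymocytes at the stage where the T cell receptor beta locus is rearranged, and had been sorted as lineage-negative, CD4-, CD8- cells with low CD44 and high CD25. RNA sequencing was done on 6 libraries in 3 groups of 2. Tcf1-deficient cells came from Lck-cre+ Tcf1 fl/fl mice. Their Cre recombinase, under the T-lineage Lck promoter, is meant to remove every form of the transcription factor Tcf1, the product of Tcf7. The p45-deficient cells (p45-/-) lacked the long Tcf1 isoforms and kept the short ones, and control cells were wild type, with no Cre named in their genotype. The labels give no age or strain, and do not say how many animals stand behind a library or whether the 2 libraries of a group share one. The p-values below thus weigh differences against library-to-library spread, part or all of which may be technical.

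Cells make these histones in bulk during S phase, when new DNA has to be packaged into nucleosomes. Their genes lie in clusters and mostly lack introns. Their mRNAs are unusual in that most carry no poly(A) tail and end just after a short RNA stem-loop, which the stem-loop binding protein Slbp recognises and which U7 snRNP helps to cut. Some of them, among them Hist1h1c, Hist1h2bc and Hist2h2be, are also known as polyadenylated mRNAs in differentiated cells. Libraries selected for poly(A) therefore miss much of the replication-dependent form, while libraries depleted of ribosomal RNA keep it. The labels name total RNA and do not say which selection was used.

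The stem-loop is shown for 8 genes because it is the feature that sets this family's mRNAs apart, and because the genes differ in how much annotated transcript follows it. The sequences come from the longest GENCODE M21 transcript of each gene (GRCm38), written as DNA on the coding strand, with the 6-base arms of the stem in capitals, the 4-base loop in lower case between them and 5 bases on each side. A stem-loop was counted where the first arm began with GG and the second arm was its exact reverse complement.
Hist3h2a: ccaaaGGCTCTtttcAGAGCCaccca
Hist3h2ba: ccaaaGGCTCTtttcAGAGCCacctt
Hist1h1c: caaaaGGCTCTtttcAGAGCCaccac
Hist1h1d: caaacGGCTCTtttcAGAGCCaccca
Hist1h2bb: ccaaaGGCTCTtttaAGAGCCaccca
Hist1h3c: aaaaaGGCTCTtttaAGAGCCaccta
Hist1h4i: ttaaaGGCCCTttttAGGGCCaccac
Hist1h4b: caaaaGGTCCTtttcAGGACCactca
Such a stem-loop was found in 33 of the 48 genes (68.8%), against 4.03% of 55273 other annotated genes. It lay within the last 100 bases of the transcript in 14 of the 48 (29.2%), against 0.145% of the other genes. In the other 19 genes more than 100 bases of annotated transcript followed it. Hist3h2a had 1643 bases after the stem-loop, Hist1h1c 840, Hist1h4i 330 and Hist3h2ba 169, whereas Hist1h2bb had 23 and Hist1h4b 28. The form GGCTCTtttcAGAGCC was shared by 16 genes of H1, H2a, H2b and H3, and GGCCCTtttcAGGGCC by 5 genes, all of H4. All 10 H4 genes with a stem-loop carried arms other than those of the first form. No exact match was found in 15 genes, of which 10 had annotated transcripts of only 312 to 411 bases.

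The promoters of 3 genes are shown because these genes passed the test between groups or lie beside one that did. Each is the 150 bases before the RefSeq start of the gene (GRCm38.p6), on the strand of the gene. Capitals mark 3 motifs on either strand, the TATA box form TATAAA, the element CCAAT bound by the factor NF-Y, and the octamer ATTTGCAT bound by Oct factors. Hist3h2a lies at chr11:58954535-58954684 (plus strand), Hist3h2ba at chr11:58948761-58948910 (plus strand) and Hist1h1b at chr13:21780626-21780775 (minus strand).
Hist3h2a: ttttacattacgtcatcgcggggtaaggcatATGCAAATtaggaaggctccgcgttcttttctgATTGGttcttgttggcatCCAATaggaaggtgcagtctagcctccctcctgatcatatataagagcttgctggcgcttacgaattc
Hist3h2ba: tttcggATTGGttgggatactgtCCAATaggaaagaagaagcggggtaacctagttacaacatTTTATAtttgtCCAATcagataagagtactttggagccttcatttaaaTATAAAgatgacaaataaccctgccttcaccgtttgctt
Hist1h1b: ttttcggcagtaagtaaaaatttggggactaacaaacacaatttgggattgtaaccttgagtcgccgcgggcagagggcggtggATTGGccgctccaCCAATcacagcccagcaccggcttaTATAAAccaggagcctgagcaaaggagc
A RefSeq promoter was at hand for 43 of the 48 genes. Within the 250 bases before the start, CCAAT was present on either strand in 36 of the 43 (83.7%), against 34.5% of 27025 promoters of all genes. It was found in all 5 genes of H1, all 12 of H2a, all 10 of H2b and all 6 of H3 with a promoter, and in 3 of 10 of H4. TATAAA was present in 46.5% of the 43 and in 13% of all promoters. The octamer was present in 25.6% and 1.61%. The 11 promoters that held it belonged to 6 H2a and 5 H2b genes. Some H2a and H2b promoters overlap on opposite strands, among them those of Hist1h2ae and Hist1h2bg and of Hist1h2ah and Hist1h2bk. A motif in such an overlap was counted for both genes, so these shares do not count separate sites. Hist3h2a and Hist3h2ba are neighbours on chromosome 11, with Hist3h2bb-ps and Trim17 between them.

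The libraries held 19640524 to 28107031 counts, and a count of 3 in a library was worth 0.110 to 0.145 CPM (a gene's count relative to the TMM-scaled size of its library). Such limits cover counting error only. The 48 histone genes together took 1199 to 2865 counts a library, or 0.0061% to 0.0111% of it. As a check of the labels, Tcf7 was at 979 and 976 CPM in Tcf1-deficient, 2340 and 2414 CPM in p45-deficient and 2088 and 1810 CPM in control libraries. The Tcf7 difference between Tcf1-deficient and control cells did not pass the test (−0.995 ± 0.11 SE as log2 fold change, adjusted p = 0.0762, edgeR), and counts per gene do not separate its isoforms. Tcf7 counts thus remained in the Tcf1-deficient libraries, and how complete the removal of Tcf1 was cannot be read from them. The 18 DN3 markers summed to 11687 and 14923 CPM in Tcf1-deficient, 16478 and 15614 CPM in p45-deficient and 16671 and 14754 CPM in control libraries, and none of them was at 0 in all libraries. In Tcf1-deficient against p45-deficient cells edgeR called 1 of the 18 higher and 5 lower, Tcf7 among the latter. The shares of all tested genes were 5.05% and 5.36%. In p45-deficient against control cells 1 was called higher and 0 lower, against 8.47% and 7.55%. In Tcf1-deficient against control cells 0 were called. Control replicate 1 was low in several RNAs that carry no poly(A) tail. Rn45s, the precursor of ribosomal RNA, held 2.52% and 1.22% of the Tcf1-deficient, 1.43% and 1.51% of the p45-deficient, and 0.482% and 1.24% of the control library counts. Rmrp, the RNA of RNase MRP, was at 7.47 and 4.16 CPM in Tcf1-deficient, 5.40 and 4.31 CPM in p45-deficient and 1.02 and 4.39 CPM in control libraries. Rpph1, the RNA of RNase P, ran from 13.1 to 39.7 CPM in the 4 mutant libraries, and was at 7.01 and 20.6 CPM in control libraries. Terc, the telomerase RNA, was not low in control replicate 1, with 0.580 CPM there and 0.191 to 0.383 CPM in the other 5 libraries. The choice of these 3 was made with their values in view.

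The summed level of the 48 genes was 103.7 and 109.1 CPM in Tcf1-deficient, 70.9 and 72.2 CPM in p45-deficient and 58.0 and 109.4 CPM in control libraries. Control replicate 1 was thus the lowest of all and control replicate 2 by a little the highest, and the 2 p45-deficient libraries lay inside the range of the controls. The part that the low non-polyadenylated RNAs of control replicate 1 have in this was not tested. Fewer cells with these mRNAs and less mRNA per cell cannot be told apart in bulk RNA.

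**Figure D1:**
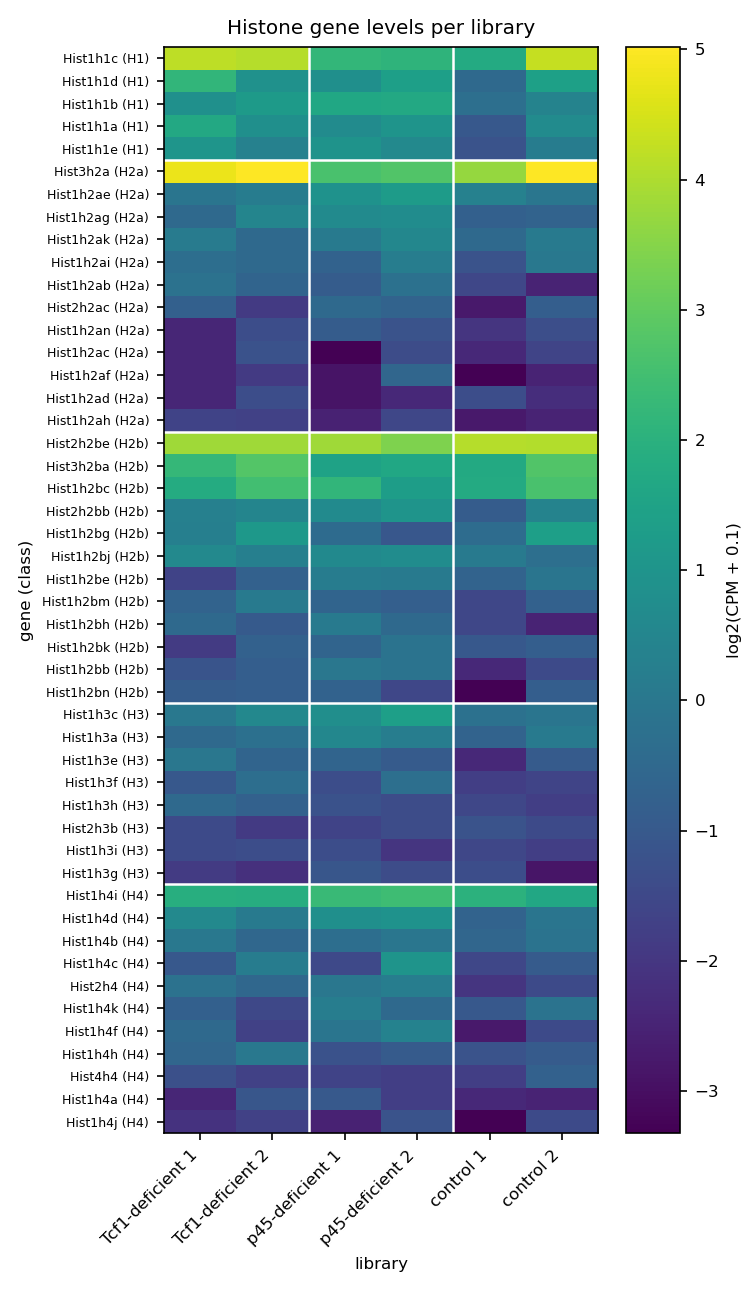
Level of each of the 48 histone genes (rows, by class) in each of the 6 libraries (columns), as log2(CPM + 0.1). Hist3h2a has the highest mean over the 6 libraries and is darker in both p45-deficient libraries (6.03 and 6.65 CPM) than in the other 4, and the column of control replicate 1 is dark for many H1 genes.

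A few genes held most of these counts. Hist3h2a, Hist2h2be, Hist1h1c, Hist3h2ba, Hist1h2bc and Hist1h4i, picked for their counts in these libraries, made up 69.1% and 72.5% of the histone CPM in Tcf1-deficient, 51.8% and 44.3% in p45-deficient and 75.1% and 76.3% in control libraries. Per kilobase of the GENCODE transcript, which need not be the annotation the authors counted on, their mean level over the 6 libraries was 9.09 CPM for Hist3h2a, 7.30 for Hist3h2ba, 7.12 for Hist1h1c, 5.64 for Hist1h4i, 5.49 for Hist2h2be and 3.61 for Hist1h2bc. The other 42 genes lay between 0.0694 and 3.29 CPM per kilobase. Summed, those 42 reached 32.0 and 30.0 CPM in Tcf1-deficient, 34.2 and 40.3 CPM in p45-deficient and 14.4 and 25.9 CPM in control libraries. Their sum in either group of mutants was above that in both controls. The sum of the 6 was instead lowest in p45-deficient cells, at 36.7 and 32.0 CPM. It was 71.6 and 79.2 CPM in Tcf1-deficient and 43.6 and 83.5 CPM in control libraries. The 6 did not move alike, as Hist1h4i was highest in p45-deficient libraries and Hist1h2bc overlapped between all groups.

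Near-identical copies limit what a single gene's count means. In the members the median share of 50-base stretches that also occur in another gene was 44.8%, and in the 11 names with 0 counts it was 89.8%, with 9 of the 11 above 85%. Among the genes described below, the share was 78.9% in Hist1h2ag, 73.4% in Hist1h3e, 58.0% in Hist1h2ab, 54.6% in Hist1h4b, 49.5% in Hist1h3a, 47.0% in Hist1h3c and 43.2% in Hist1h2ae. The counts of these genes are uncertain, since reads may have been split between copies or dropped. To a lesser degree this also holds for Hist3h2a (31.5% shared), Hist1h2bc (30.1%), Hist1h4i (28.9%) and Hist3h2ba (22.1%). Hist2h2be and Hist1h1b shared none, and Hist1h1c 8.54%.

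Differences between groups were tested with edgeR's quasi-likelihood F test on all genes that passed its filter on low counts (12939), with Benjamini-Hochberg adjustment at 0.05 in each comparison. Of the 48 histone genes 37 passed the filter, and the other 11 were too low to be tested. In p45-deficient against control cells 1 of them was called higher, Hist1h1b, and 1 lower, Hist3h2a, against a background of 8.47% of all tested genes called higher and 7.55% called lower. In Tcf1-deficient against p45-deficient cells 1 was called higher, again Hist3h2a, and 0 lower, against 5.05% and 5.36% of all tested genes. In Tcf1-deficient against control cells edgeR called 0 histone genes, as it called 0% of all genes, and a Wald test with DESeq2 also called 0. At an unadjusted p under 0.05, edgeR had 2 histone genes higher there (Hist2h4 and Hist1h2ab) and 0 lower, against 4.30% and 3.61% of all tested genes. The 3 comparisons share libraries pairwise, so their values are not independent of each other.

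Where the direction of both libraries is asked for, in place of a p, the background is high. In the p45-deficient libraries 25 of the 48 genes lay above both controls and 5 below both, where 36.4% of all genes with a total of 20 or more lay above and 30.6% below. Without control replicate 1 the counts were 26 and 9, against 44.7% and 39.4% of all such genes, and without control replicate 2 they were 36 and 6, against 46.0% and 39.7%. In Tcf1-deficient cells 19 lay above both controls and 3 below, against 16.5% and 17.8%. Without control replicate 1 these became 22 and 13, against 27.3% and 28.1%, and without control replicate 2 they were 35 and 6, against 32.1% and 32.6%. Against p45-deficient cells, 6 genes in Tcf1-deficient cells lay above and 19 below, where 27.1% and 32.1% of all such genes did. The leave-out counts were added after the data had been seen.

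The median log2 fold change over all 48 genes, fitted with every gene of total 20 or more, was 0.62 in p45-deficient over control cells, with 36 above 0 and 12 below, where the median of all genes was −0.01. In Tcf1-deficient over control cells the median was 0.52, with 35 above and 13 below, where all genes had a median of 0.01. Between Tcf1-deficient and p45-deficient cells it was −0.18, with 21 above and 27 below, beside 0.05 for all genes. By class, the p45-deficient over control medians were 0.78 for H1, 0.83 for H2a, 0.54 for H2b, 0.71 for H3 and 0.46 for H4. The Tcf1-deficient over control medians were 1.01, 0.32, 0.37, 0.43 and 0.77 in the same order. The single genes ran from −1.87 to 2.64 in the first of these comparisons and from −0.93 to 2.07 in the second.

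**Figure D2:**
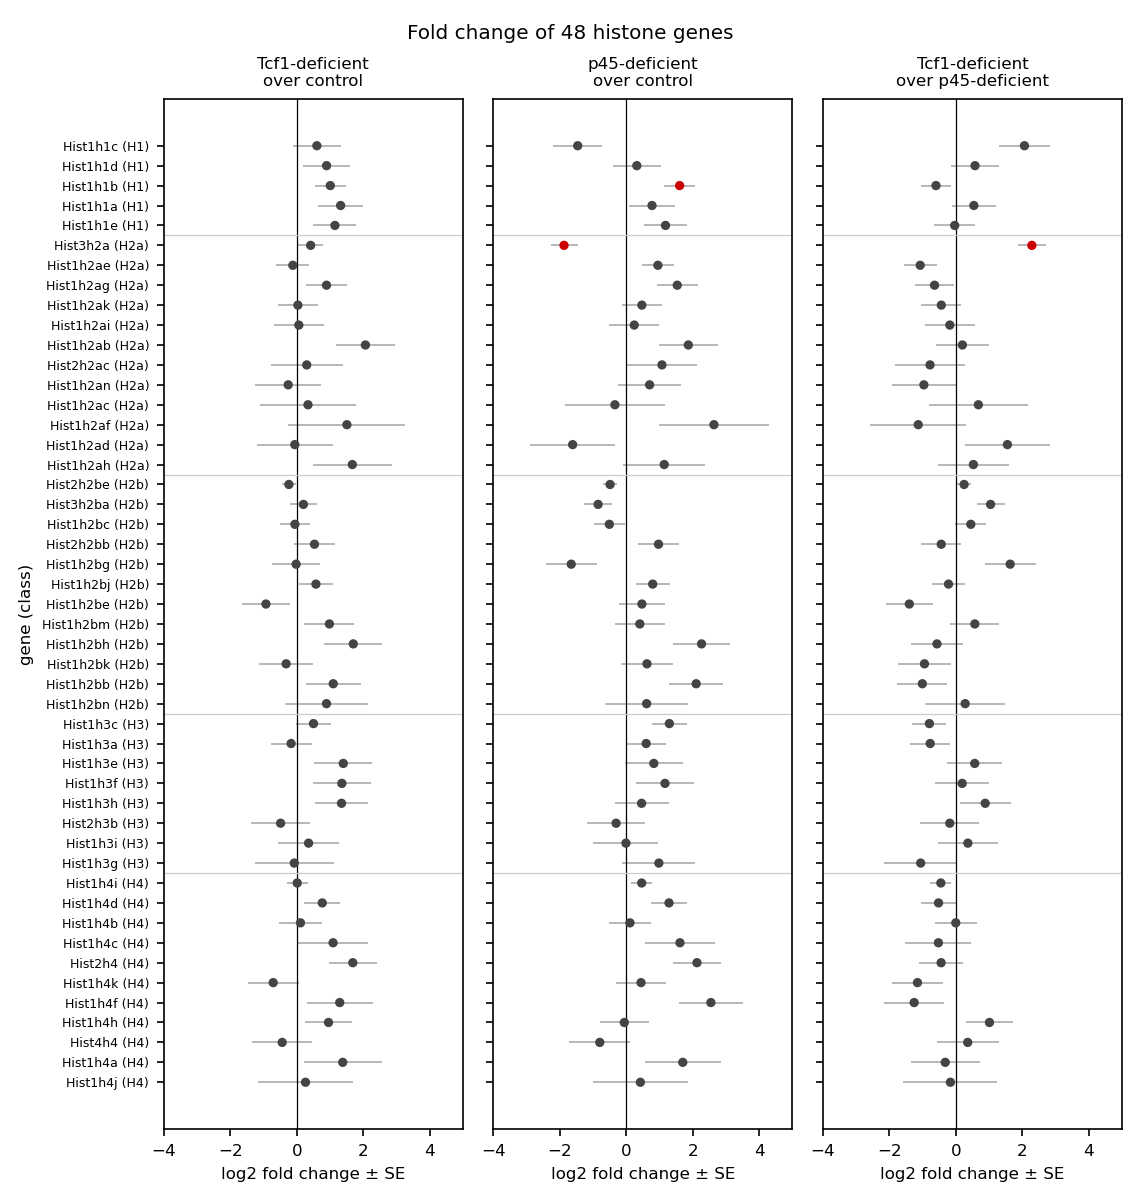
Log2 fold change ± SE of each of the 48 genes (rows, by class) in the 3 comparisons (panels), from the edgeR fit over all genes with a total of 20 or more, so that every gene has a value. Red marks the genes called by the main test: Hist1h1b and Hist3h2a in p45-deficient over control cells, and Hist3h2a in Tcf1-deficient over p45-deficient cells.

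The linker histones bind DNA where it enters and leaves the nucleosome. Their 5 genes summed to 29.5 and 23.6 CPM in Tcf1-deficient, 12.6 and 13.3 CPM in p45-deficient and 5.41 and 25.9 CPM in control libraries, so 1 control lay below all other libraries and the other above both p45-deficient ones. With 2 libraries in each group an exact permutation test of such a sum cannot go below p = 0.333, and none was run on the class sums. Hist1h1b, which encodes the H1 now named H1f5, was at 1.71 and 2.25 CPM in Tcf1-deficient, 3.05 and 3.16 CPM in p45-deficient and 0.725 and 1.22 CPM in control libraries. The 3 groups did not overlap. Hist1h1b was 3.16-fold higher in p45-deficient than in control cells (log2 fold change 1.66 ± 0.46 SE, adjusted p = 0.0498, edgeR). The call was lost with 3 other scalings of the libraries (adjusted p = 0.0553 to 0.0594, edgeR), without either p45-deficient library (0.215 and 0.203), and without either control (0.264 and 0.118), while the direction held in all of these. Between Tcf1-deficient and control cells its log2 fold change was 1.01 ± 0.46 (SE, adjusted p = 0.638, edgeR).

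Hist1h1c, the H1f2 gene and the linker gene with the most counts, was at 18.2 and 16.8 CPM in Tcf1-deficient, 4.45 and 4.21 CPM in p45-deficient and 3.34 and 19.5 CPM in control libraries. The controls lay at the bottom and the top of the range, and the Tcf1-deficient libraries lay above the p45-deficient ones without overlap. The log2 fold change of Hist1h1c was 2.02 ± 0.75 (SE, adjusted p = 0.137, edgeR) in Tcf1-deficient over p45-deficient cells and −1.41 ± 0.75 (SE, adjusted p = 0.245, edgeR) in p45-deficient over control cells. Without control replicate 1 the values were 2.07 (adjusted p = 0.0109) and −2.22 (adjusted p = 0.0170), and without control replicate 2 the second turned to 0.32 (adjusted p = 0.572). Wherever a library is left out, the lone library of its group is assumed to vary like those of the other groups. The remaining linker genes, Hist1h1d, Hist1h1a and Hist1h1e, ran from 1.03 to 4.35 CPM in 5 libraries, and were each lowest in control replicate 1, at 0.628, 0.387 and 0.338 CPM. None of these 3 passed the test in any comparison.

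**Figure D3:**
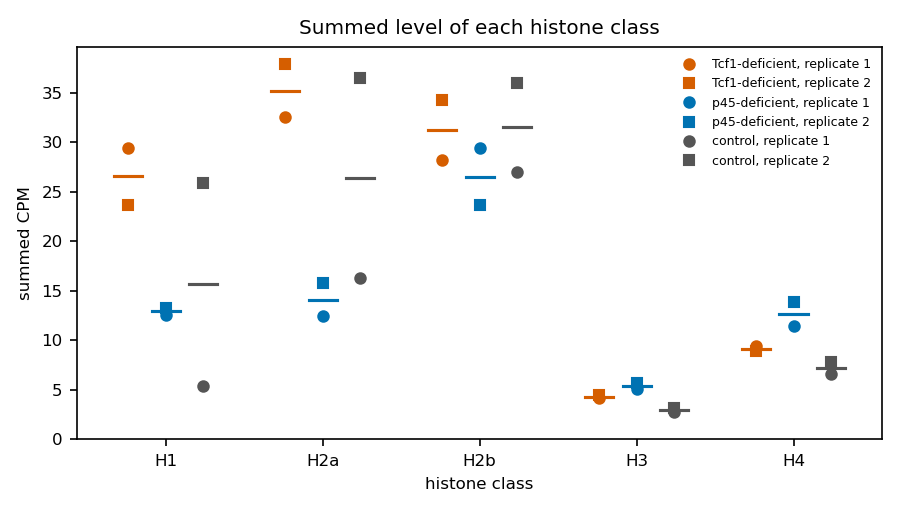
Summed CPM of the genes of each histone class in each library, with circles for replicate 1, squares for replicate 2 and bars for the mean of the 2 libraries. In H1 and H2a the 2 controls lie far apart (5.41 and 25.9 CPM, and 16.2 and 36.5 CPM), whereas in H3 and H4 the p45-deficient libraries lie above all others.

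H2A and H2B form the dimers that flank the H3 and H4 tetramer in the nucleosome. The 12 H2a genes summed to 32.5 and 37.9 CPM in Tcf1-deficient, 12.5 and 15.7 CPM in p45-deficient and 16.2 and 36.5 CPM in control libraries. Hist3h2a, an H2A gene of the small cluster on chromosome 11, made up 42.2% to 87.3% of the class, with its lowest share in a p45-deficient library. Hist3h2a was at 27.5 and 32.3 CPM in Tcf1-deficient, 6.03 and 6.65 CPM in p45-deficient and 12.8 and 31.8 CPM in control libraries. Both p45-deficient libraries lay below the other 4, and the Tcf1-deficient libraries overlapped the controls. Hist3h2a was 3.53-fold lower in p45-deficient than in control cells (log2 fold change −1.82 ± 0.41 SE, adjusted p = 0.0304, edgeR) and 4.72-fold higher in Tcf1-deficient than in p45-deficient cells (log2 fold change 2.24 ± 0.41 SE, adjusted p = 0.0247, edgeR). Both calls held under every scaling and filter tried and with DESeq2. The first was lost without either p45-deficient library (adjusted p = 0.213 and 0.172) and without control replicate 2, where the log2 fold change was −1.07 (adjusted p = 0.0662). The second was lost without either Tcf1-deficient library (adjusted p = 0.0676 and 0.0520) and without either p45-deficient library (adjusted p = 0.198 and 0.160).

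Without Hist3h2a, the H2a sum averaged 5.29 CPM in Tcf1-deficient, 7.76 CPM in p45-deficient and 4.05 CPM in control libraries, so the order of the groups was not that of the whole class. Hist1h2ae was at 0.835 and 1.04 CPM in Tcf1-deficient, 1.80 and 2.30 CPM in p45-deficient and 1.16 and 0.878 CPM in control libraries. Both p45-deficient libraries were the highest, and its log2 fold change over control was 1.01 ± 0.48 (SE, adjusted p = 0.191, edgeR). Hist1h2ag was at 0.615 and 1.29 CPM in Tcf1-deficient, 1.51 and 1.58 CPM in p45-deficient and 0.483 and 0.534 CPM in control libraries, again with the p45-deficient libraries on top. In p45-deficient over control cells it stood at 1.59 ± 0.59 on the log2 scale (SE, adjusted p = 0.109, edgeR). The other 9 H2a genes stayed at or below 1.34 CPM in every library, and 5 of the 12 were too low to be tested.

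**Figure D4:**
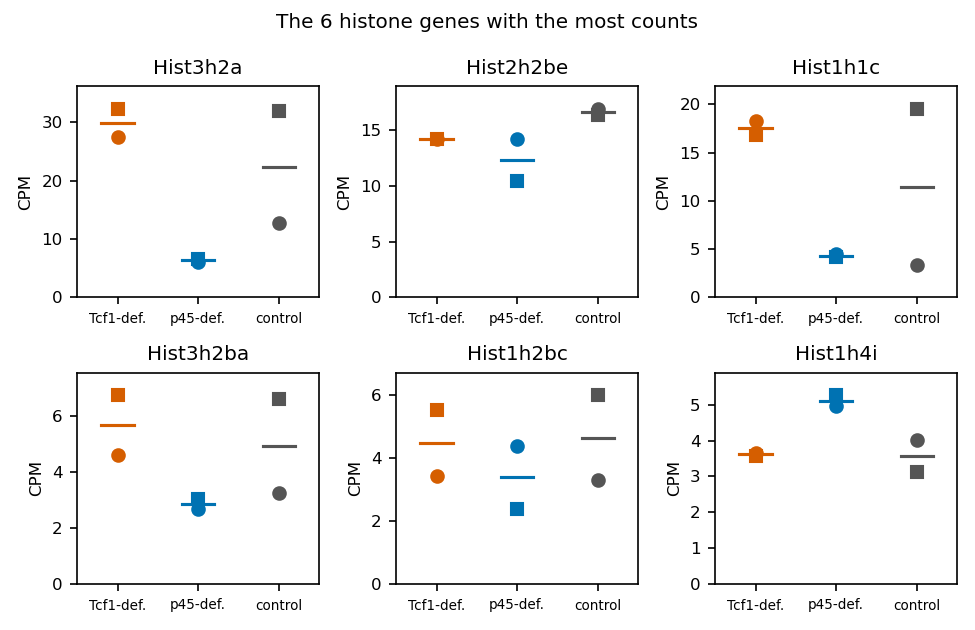
CPM of the 6 histone genes with the most counts in each library, with circles for replicate 1, squares for replicate 2 and bars for the mean of the 2 libraries of a group. Hist3h2a, Hist1h1c and Hist3h2ba are lower in both p45-deficient libraries and in control replicate 1 than in the other 3 libraries, while Hist1h4i is highest in the p45-deficient libraries, at 4.96 and 5.27 CPM.

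The 12 H2b genes summed to 28.2 and 34.2 CPM in Tcf1-deficient, 29.4 and 23.6 CPM in p45-deficient and 27.0 and 36.0 CPM in control libraries, and the 3 groups overlapped. Hist2h2be, the H2B gene with the most counts, was at 14.2 and 14.2 CPM in Tcf1-deficient, 14.2 and 10.4 CPM in p45-deficient and 16.9 and 16.4 CPM in control libraries. Both controls lay above the other 4 libraries. The log2 fold changes were −0.23 ± 0.21 in Tcf1-deficient and −0.43 ± 0.21 in p45-deficient over control cells (SE, adjusted p = 0.796 and 0.197, edgeR). Hist3h2ba, the H2B gene beside Hist3h2a, was at 4.62 and 6.74 CPM in Tcf1-deficient, 2.68 and 3.02 CPM in p45-deficient and 3.24 and 6.60 CPM in control libraries. As for Hist3h2a, both p45-deficient libraries lay below the other 4. The differences were smaller, with log2 fold changes of −0.79 ± 0.42 in p45-deficient over control and 1.00 ± 0.42 in Tcf1-deficient over p45-deficient cells (SE, adjusted p = 0.234 and 0.160, edgeR). Hist1h2bc, known also as a polyadenylated mRNA, was at 3.43 and 5.53 CPM in Tcf1-deficient, 4.37 and 2.39 CPM in p45-deficient and 3.29 and 5.99 CPM in control libraries, with overlap throughout. Of the other 9 H2b genes, none passed the test in any comparison.

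H3 and H4 form the tetramer at the centre of the nucleosome. In both classes the summed level was highest in p45-deficient and lowest in control libraries, with no overlap between the 3 groups. The 8 H3 genes summed to 4.13 and 4.45 CPM in Tcf1-deficient, 5.07 and 5.70 CPM in p45-deficient and 2.71 and 3.17 CPM in control libraries. The 11 H4 genes summed to 9.36 and 8.91 CPM in Tcf1-deficient, 11.4 and 13.9 CPM in p45-deficient and 6.57 and 7.79 CPM in control libraries. Control replicate 1 was the lower of the controls in both, by less than in H1 and H2a. These sums came from few counts and had no test.

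Hist1h3c, the H3 gene with the highest mean level, was at 0.923 and 1.37 CPM in Tcf1-deficient, 1.65 and 2.49 CPM in p45-deficient and 0.773 and 0.840 CPM in control libraries. The groups did not overlap, and its log2 fold change in p45-deficient over control cells was 1.35 ± 0.51 (SE, adjusted p = 0.113, edgeR). Hist1h3a was at 0.615 and 0.749 CPM in Tcf1-deficient, 1.36 and 1.05 CPM in p45-deficient and 0.532 and 0.992 CPM in control libraries. Hist1h3e was at 0.879 and 0.541 CPM in Tcf1-deficient, 0.551 and 0.431 CPM in p45-deficient and 0.0967 and 0.420 CPM in control libraries. Neither passed the test in any comparison.

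Hist1h4i, the H4 gene with the most counts, was at 3.65 and 3.58 CPM in Tcf1-deficient, 4.96 and 5.27 CPM in p45-deficient and 4.01 and 3.13 CPM in control libraries. The p45-deficient libraries were highest, and the log2 fold change over control was 0.52 ± 0.31 (SE, adjusted p = 0.289, edgeR). Hist1h4d was at 1.41 and 0.957 CPM in Tcf1-deficient, 1.69 and 1.82 CPM in p45-deficient and 0.532 and 0.840 CPM in control libraries, without overlap. Its log2 fold change in p45-deficient over control cells was 1.34 ± 0.53 (SE, adjusted p = 0.125, edgeR). Hist1h4b, at 0.580 to 0.923 CPM, overlapped in all comparisons. Hist2h4, the H4 gene of the chromosome 3 cluster, was at 0.791 and 0.583 CPM in Tcf1-deficient, 0.882 and 1.05 CPM in p45-deficient and 0.145 and 0.267 CPM in control libraries. Both mutant groups lay above both controls, but the test was not passed (adjusted p = 0.618 in Tcf1-deficient and 0.0673 in p45-deficient over control cells, edgeR). Hist2h4 and Hist1h2ab are named because their values stood out.

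The annotated transcript end was a feature that the choice of genes did not use. The hexamers AATAAA and ATTAAA, the usual signals for poly(A) addition, were searched in the last 50 bases of the annotated transcript. One or the other was present in 12 of the 48 genes (25%), against 38.4% of other genes. It was present in 5 of the 6 genes with the most counts, the exception being Hist1h2bc. The genes without a stem-loop and with annotated transcripts of 312 to 411 bases all fell among the 36 without a hexamer. Their annotated ends may leave out part of the mRNA, and the part of this in the split was not tested. The 12 genes with a hexamer summed to 71.1 and 77.4 CPM in Tcf1-deficient, 37.1 and 35.0 CPM in p45-deficient and 42.7 and 80.7 CPM in control libraries. The 36 without one summed to 32.5 and 31.7 CPM in Tcf1-deficient, 33.9 and 37.2 CPM in p45-deficient and 15.2 and 28.6 CPM in control libraries. The first sum was lowest in p45-deficient cells and the second was above both controls in all 4 mutant libraries. Without Hist3h2a the first sum was 43.6 and 45.2 CPM in Tcf1-deficient, 31.1 and 28.4 CPM in p45-deficient and 30.0 and 48.9 CPM in control libraries, and the p45-deficient libraries overlapped the controls. In p45-deficient over control cells the median log2 fold change was 0.18 in the 12, with 6 above 0 and 6 below, and 0.79 in the 36, with 30 above and 6 below. In Tcf1-deficient over control cells it was 0.23 and 0.67. Between Tcf1-deficient and p45-deficient cells it was 0.05 and −0.20. This split largely repeats that by the 6 genes with the most counts, was looked at with the levels known, and the difference between the 2 sets was not tested.

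**Figure D5:**
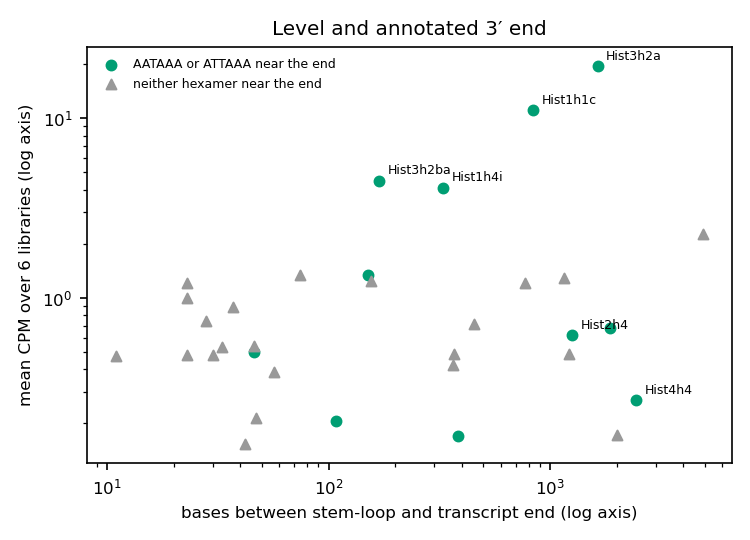
Mean CPM over the 6 libraries (log axis) of the 33 histone genes with a stem-loop, against the number of annotated bases that follow the stem-loop (log axis), with green circles for genes with AATAAA or ATTAAA in the last 50 bases and grey triangles for the others. The genes with the stem-loop within 100 bases of the end lie between 0.153 and 1.34 CPM. Hist3h2a, Hist1h1c, Hist3h2ba and Hist1h4i, with 169 to 1643 bases after it, lie above them. The 19 genes with over 100 bases after it start at 0.169 CPM, and their median is 0.712 CPM, beside 0.516 CPM for the others. Per kilobase of transcript the order of the medians is reversed, at 0.582 and 1.05 CPM.

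Genes that act in the transcription of these genes or on their mRNAs were followed as a list of 32, all of which were tested. In p45-deficient over control cells 5 were called higher and 0 lower, with a median log2 fold change of 0.18, beside 0.05 for all tested genes. Of all tested genes 8.47% were called higher and 7.55% lower there, and 5.05% and 5.36% in Tcf1-deficient over p45-deficient cells. These shares are also the background of the lists that follow. Slbp, whose protein binds the stem-loop, was at 159 and 171 CPM in Tcf1-deficient, 242 and 235 CPM in p45-deficient and 137 and 143 CPM in control libraries. It was 1.70-fold higher in p45-deficient than in control cells (log2 fold change 0.77 ± 0.11 SE, adjusted p = 0.00728, edgeR). Eri1, an exonuclease that trims the stem-loop end, Mif4gd, a partner of Slbp in translation, and Ncbp2, a subunit of the cap-binding complex, rose 1.48-fold, 1.67-fold and 1.52-fold in that comparison (adjusted p = 0.0264, 0.0230 and 0.0272, edgeR). The remaining call was Nfyb, a subunit of NF-Y, which rose 1.45-fold (adjusted p = 0.0341, edgeR). The NF-Y genes Nfya and Nfyc were not called (adjusted p = 0.568 and 0.139, edgeR). Npat, the coactivator of histone gene transcription, was not called (log2 fold change 0.22 ± 0.18 SE, adjusted p = 0.443, edgeR). Nor were Casp8ap2, or the U7 snRNP proteins Lsm10 and Lsm11, with log2 fold changes of 0.42, 0.002 and 0.18. In Tcf1-deficient over p45-deficient cells 2 of the 32, Slbp and Ncbp2, fell, by 0.53 and 0.66 on the log2 scale (adjusted p = 0.0296 and 0.0290, edgeR), and 0 rose. In Tcf1-deficient over control cells 0 were called.

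Histone variants classed as replication-independent were a list of 11. In p45-deficient over control cells 3 rose and 1 fell, against 8.47% and 7.55% of all tested genes. The median log2 fold change of the list was 0.35, beside 0.05 for all tested genes. Cenpa, the centromeric H3 variant, rose 2.42-fold, H2afz, the H2A.Z gene, 1.75-fold and H2afv, a second H2A.Z gene, 1.48-fold (adjusted p = 0.00217, 0.0104 and 0.0258, edgeR). H2afy2, which encodes a macroH2A, had 47 counts in the 2 Tcf1-deficient, 0 in the 2 p45-deficient and 65 in the 2 control libraries. Against a limit of 3 counts over the p45-deficient group, H2afy2 was at least 22.2-fold lower in p45-deficient than in control cells. H2afx, H3f3a, H3f3b and H1f0 were not called, at log2 fold changes of 0.20, 0.39, 0.36 and 0.35. In Tcf1-deficient over p45-deficient cells Cenpa and H2afz fell, by 0.84 and 0.77 on the log2 scale, and H2afy2 was the 1 gene that rose, by at least 16.1-fold against the same limit. The list had 0 calls in Tcf1-deficient over control cells.

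Chaperones carry new histones to the DNA, and 22 genes of such a list of 23 were tested. In p45-deficient over control cells 5 rose and 2 fell, against 8.47% and 7.55% of all tested genes. The median log2 fold change of the list was 0.35, beside 0.05 for all tested genes. Asf1b, which hands H3 and H4 to the assembly machinery, rose 2.06-fold and Nasp, which binds free histones, rose 1.64-fold (adjusted p = 0.00620 and 0.0102, edgeR). Ipo4, a histone importer, and Cabin1, of the HIRA complex, were 1.61-fold and 1.49-fold lower (adjusted p = 0.0137 and 0.0324, edgeR). Between Tcf1-deficient and p45-deficient cells 3 fell, Asf1b, Nasp and the acetyltransferase gene Hat1, and 0 rose. In Tcf1-deficient over control cells 0 were called.

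Cell cycle genes were followed as 2 further lists. The S phase list shares Slbp, Chaf1a and Chaf1b with the lists above, of which Slbp was called. Of 46 S phase genes 24 were called higher and 0 lower in p45-deficient over control cells, with a median log2 fold change of 0.60. Of 20 G2 and M phase genes 17 were called higher and 0 lower, with a median of 1.04. All tested genes had a median of 0.05 there, with 8.47% called higher and 7.55% lower. Gins1, of the replicative helicase, rose 2.02-fold and Cdk1, the mitotic kinase, 2.26-fold (adjusted p = 0.00813 and 0.00414, edgeR). The S phase genes summed to 7219 and 8684 CPM in Tcf1-deficient, 10411 and 11339 CPM in p45-deficient and 8247 and 7540 CPM in control libraries. In Tcf1-deficient over p45-deficient cells 19 of the 46 and 17 of the 20 were called lower and 0 higher, and in Tcf1-deficient over control cells 0 of either list were called. Control replicate 1 was not low in the S phase sum, unlike in the histone sum. The part of cell cycle composition in the histone differences was not tested.

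Markers of other cells that a DN3 sort could hold were compared with the same test. B cell markers summed to 19.7 and 29.3 CPM in Tcf1-deficient, 16.1 and 13.5 CPM in p45-deficient and 35.4 and 28.2 CPM in control libraries. They were lowest in p45-deficient cells and highest in control replicate 1. Of the 3 of these that were tested, Cd79a was called lower in p45-deficient than in control cells. Natural killer and innate lymphoid markers summed to 84.4 and 60.6 CPM in Tcf1-deficient, 29.1 and 26.0 CPM in p45-deficient and 27.6 and 43.0 CPM in control libraries, with 1 of 6 tested called higher in Tcf1-deficient than in p45-deficient cells, Nkg7. Dendritic and myeloid markers summed to 162 and 71.2 CPM in Tcf1-deficient, 92.0 and 93.8 in p45-deficient and 170 and 111 in control libraries. Of the 8 tested, only Cst3 was called, lower in Tcf1-deficient than in p45-deficient cells. The median log2 fold change of the 8 in that comparison went the other way, at 1.02. Markers of later T cells lay between 591 and 1294 CPM and thymic stroma markers between 67.3 and 115 CPM, with 0 calls. The part of other cells in the histone differences was not tested.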

How the data were processed

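The data are RNA-seq counts of 6 DN3 thymocyte libraries. Per the submitters' processing notes, the tools were TopHat2, featureCounts 1.5.0-p3 and DESeq2 3.4 with build mm9, in no stated role. The authors deposited whole-number read counts per gene name, not normalised. The labels state neither the gene annotation, nor the strand setting, nor the RNA selection.

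Members and lists were chosen with earlier results of these data known. The main test used edgeR 4.0.16 under R 4.3.3 (filterByExpr, TMM, 1 mean per group over all 6 libraries, robust quasi-likelihood F test with 3 residual degrees of freedom, two-sided). The procedure was tested on simulated data, with changes planted only in genes at levels that most of the histone genes do not reach. That test does not cover the lower genes. SEs come from the F statistic. DESeq2 1.42.0, other scalings and filters, a replicate block and leaving out each library were alternatives. Named histone genes are the 3 highest of each class by mean CPM, those called and 3 known polyadenylated ones. Genes named from other lists are up to 4 called genes with the smallest p, 11 fixed ones, and the NF-Y genes, added after the data had been seen. Libraries within a group differed by more than counting noise (chi-square per degree of freedom 62.5, 8.53 and 31.9 in Tcf1-deficient, p45-deficient and control cells). Motifs and stem-loops were searched in GENCODE M21 transcripts and RefSeq promoters (GRCm38), another build than the authors', and used for description only.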

Additional observations from a re-analysis of the deposited data

How the results depend on the processing

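The number of histone genes called in p45-deficient against control cells was 1, Hist3h2a, with DESeq2 size factors, library totals or upper-quartile factors, with no filter, with a total of 20 or more, and with the replicate block, and 6 when only the 2 groups compared were fitted, which added Hist1h2ag, Hist1h4f, Hist1h2bb and Hist2h4, all higher. It was 0 to 2 with each library left out. In Tcf1-deficient against p45-deficient cells it was 2 (with Hist1h1c) by DESeq2 and with only the 2 groups fitted, and 0 to 2 with each library left out. In Tcf1-deficient against control cells it was 0 throughout. These counts stand without the share of all genes called under each alternative, so they are not read as particular to histone genes. The replicate numbers did not pair the libraries (correlations of deviations −0.04, −0.05 and −0.04). Under that block the adjusted p of Hist1h1b was 0.0647. With library totals the median of all genes in p45-deficient over control cells was −0.06, against 0.05 with TMM. Leaving out 1 library at a time, genes above the controls were 22 to 35 (27.3% to 39.6% of all genes) and below them 5 to 13 (28.1% to 38.3%) in Tcf1-deficient cells, genes below the controls 6 to 9 (37.8% to 39.7%) in p45-deficient cells, and genes above the p45-deficient libraries 10 to 17 (33.9% to 44.2%) in Tcf1-deficient cells.

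Without its most abundant gene, each class averaged, in Tcf1-deficient, p45-deficient and control libraries, 5.29, 7.76 and 4.05 CPM for H2a, 17.0, 14.2 and 14.9 for H2b, 3.14, 3.31 and 2.13 for H3 and 5.52, 7.54 and 3.61 for H4. For H1 it was 9.02, 8.59 and 4.23. Of 675 log2 fold changes of the 15 named genes under alternatives, 26 changed sign. In Tcf1-deficient over control cells Hist1h4i was −0.032 with library totals and −0.021 with upper-quartile factors. Over p45-deficient cells Hist1h4b was 0.0072 with library totals and 0.00077 with a total of 20 or more. The rest came from leaving out libraries. In p45-deficient over control cells they ran from −2.22 to 0.32 for Hist1h1c, −0.35 to 1.68 for Hist1h1d and −0.093 to 0.37 for Hist1h4b. In Tcf1-deficient over control cells they ran from −0.16 to 2.39 for Hist1h1c, −0.090 to 1.22 for Hist3h2a, −0.31 to 0.10 for Hist1h2ae, −0.22 to 0.81 for Hist3h2ba, −0.45 to 0.44 for Hist1h2bc, −0.54 to 0.35 for Hist1h3a, −0.16 to 0.21 for Hist1h4i and −0.25 to 0.40 for Hist1h4b. In Tcf1-deficient over p45-deficient cells they ran from −0.21 to 1.04 for Hist1h1d, −0.0016 to 0.90 for Hist1h2bc, −0.013 to 0.43 for Hist2h2be and −0.36 to 0.23 for Hist1h4b. The cause of these changes was not tested. Of the 48 genes, all but 9 had under 200 counts in all, which limits what these libraries can show for single genes.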
